A study of Mus musculus with 29 samples.

Results

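The genes described here are the potassium channel genes of the mouse, taken as all genes whose symbol starts with Kcn and with a probe that stood well above background in 3 or more of 29 arrays, the brightest probe standing for each gene. The array named 96 such symbols, through 130 probes, and 57 genes passed. Of these 57, 56 code for proteins and 1, Kcnq1ot1, is a long noncoding RNA. In all, 15622 genes were tested in the same way.

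The arrays measured podocytes, the epithelial cells that wrap the capillaries of the kidney glomerulus, in a mouse model in which only part of the podocytes is hit by a toxin. The animals were 16 male C57BL/6J mice of the Pod-hCD25T/G genotype, 8 weeks old, and a fluorescence sorter separated TdTomato from EGFP podocytes. The labels do not say what the colours stand for. As the study is known, TdTomato cells carry human CD25, and EGFP cells, from the same mouse, do not. Mice had 1 kidney removed and then received 25 ng of the immunotoxin LMB2 per gram of body weight. LMB2 binds human CD25 and delivers a bacterial toxin that stops protein synthesis. The TdTomato groups held 4 mice at day 0 (before injection), 4 at day 1, 4 at day 4 and 2 at day 7. The EGFP groups held 4 mice at day 0, 3 at day 1, 4 at day 4 and 4 at day 7, and 13 of the 16 mice gave both populations. All groups share the genotype. The sources used here do not give whether the day 0 mice had undergone surgery, nor which promoter drives the human CD25 allele.

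Potassium channels let potassium ions leave or enter a cell and so set its membrane voltage, its volume and the driving force for calcium entry. Voltage-gated channels (Kcna, Kcnb, Kcnc, Kcnd, Kcnh, Kcnq) open on depolarization, Kcnf and Kcng subunits form no channel alone but modify others, inward rectifiers (Kcnj) hold the resting voltage, and channels with paired pore domains (Kcnk) leak potassium at rest and answer to stretch, acid or lipids. Calcium-activated channels (Kcnm, Kcnn) link calcium to voltage, and Kcnab, Kcne, Kcnip and Kcnmb proteins are auxiliary subunits. In podocytes the large-conductance calcium-activated (BK) channel, whose pore subunit is Kcnma1, has been described in foot processes together with the calcium-permeable channel Trpc6, and in the renal tubule Kcnj1, Kcnj10, Kcnj15 and Kcnj16 serve salt and potassium transport.

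The upstream sequences of 3 members are shown because these genes gave the largest changes in the toxin-bearing cells for which a sequence was held: Kcnk10 and Kcnmb3, which rose most, and Kcnj12, which fell most at day 1. Each runs 5′ to 3′ on the strand of the gene, over 300 bases around a start site in RefSeq (GRCm38.p6), most of them before it, and capitals mark motif matches on either strand. For Kcnk10, 1 of 2 starts is shown, and the capitals are a GC box (GGGCGG or its reverse complement). For Kcnmb3 and Kcnj12 the capitals are matches to an NF-kB motif (GGGANNNNCC or its reverse complement).
Kcnk10, chr12:98578164-98578463, minus strand: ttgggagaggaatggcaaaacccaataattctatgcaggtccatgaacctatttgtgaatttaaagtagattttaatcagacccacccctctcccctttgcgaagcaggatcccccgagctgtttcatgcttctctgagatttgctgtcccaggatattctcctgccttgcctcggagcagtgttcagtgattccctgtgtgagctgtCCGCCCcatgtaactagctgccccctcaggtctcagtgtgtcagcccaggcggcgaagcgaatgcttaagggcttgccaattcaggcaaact
Kcnmb3, chr3:32491920-32492219, minus strand: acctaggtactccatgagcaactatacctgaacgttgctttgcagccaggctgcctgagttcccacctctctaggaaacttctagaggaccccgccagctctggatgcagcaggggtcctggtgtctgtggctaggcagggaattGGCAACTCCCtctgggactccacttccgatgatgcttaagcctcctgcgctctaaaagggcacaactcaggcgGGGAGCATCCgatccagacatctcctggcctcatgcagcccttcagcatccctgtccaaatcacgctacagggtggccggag
Kcnj12, chr11:61065554-61065853, plus strand: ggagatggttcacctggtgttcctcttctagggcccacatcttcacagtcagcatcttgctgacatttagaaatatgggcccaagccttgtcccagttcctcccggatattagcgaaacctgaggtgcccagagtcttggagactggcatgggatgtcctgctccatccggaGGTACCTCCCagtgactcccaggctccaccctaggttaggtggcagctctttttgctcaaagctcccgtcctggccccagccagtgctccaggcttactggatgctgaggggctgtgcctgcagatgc
Of the 57 members, 41 had an entry, with 51 promoters in all. The NF-kB motif was found in 13 of the 51 member promoters (25.5%) and in 20.7% of all 32851 promoters, and the GC box in 25 (49%) against 35.7%. An AP-1 motif (TGANTCA) was found in 1 (1.96%) against 7.81%, and a CRE (TGACGTCA) in 0 against 1.79%. GC box and NF-kB matches can overlap, and a match is a description of the letters only. Kcnj14, Kcnq1 and Kcnk6 had no entry.

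Levels are given below as log2 signal minus the array's 75th percentile, so they compare arrays for 1 gene and not 1 gene with another. Between 48.23% and 65.48% of spots were well above background on an array, and no spot was saturated. The 10 podocyte markers were above background on every array. In TdTomato cells 6 of the 10 fell at day 1, 9 at day 4 and 6 at day 7 against day 0, and in EGFP cells 0 did, so changes below sit beside a lower podocyte signal. In sorted bulk RNA, fewer cells of a type and less RNA per cell cannot be told apart. Of 10 glomerular endothelium markers, 2 rose at day 4 and 5 at day 7 in TdTomato cells, with summed levels of 4.83 to 5.68 at day 7 against 3.31 to 4.16 at day 0, and of 10 mesangium and smooth muscle markers 3 rose and 1 fell at day 4 and 4 rose at day 7. Of 6 measured lymphocyte markers, 3 rose and 1 fell at day 4 and 2 rose at day 7, with sums of 1.85 to 2.59 at day 4 against 1.3 to 2.35 at day 0. Of 9 myeloid markers, 2 rose at each later day, with sums of 6.4 to 8.05 at day 1 against 5.27 to 5.82 at day 0. The part of these cells in the channel results was not tested. The 2 arrays of mouse MC221 (day 7) stood apart: in the authors' table their columns matched other arrays better than their own, and their summed distal nephron markers were 5.86 (TdTomato) and 4.70 (EGFP), against 1.77 in the other TdTomato array and 1.03 to 1.55 in the other EGFP arrays of day 7. The TdTomato array of mouse MC823 at day 4 had a summed proximal tubule signal of 7.51, against 1.32 to 2.36 in the other 3 of its group, and a distal nephron sum of 3.95 against 1.48 to 2.29. Many of the day 7 results, though not all, are therefore given with and without MC221. Without it, 1 TdTomato array of day 7 is left. The arrays lay on 4 slides, so each difference could also be read within a slide, but each group had a fixed position on the slide, except 1 EGFP array at day 7, and the effects of position and group cannot be told apart.

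Among the 57 genes, 31 were called at a limma adjusted p under 0.05 in at least 1 of the comparisons made and 26 in none. Without the comparisons between later days, which were added after the data had been seen, 30 were called. The share of all genes called in at least 1 comparison was not counted, so these numbers describe the members only. In TdTomato cells at day 1, 9 members (15.8%) rose and 6 (10.5%) fell against day 0, where 23.8% of all genes rose and 27.9% fell. At day 4, 12 members (21.1%) rose and 10 (17.5%) fell, against 21.4% and 35.9% of all genes. At day 7, 4 (7.02%) rose and 3 (5.26%) fell, against 10.9% and 8.47%, and without MC221 3 rose and 2 fell, against 7.02% and 2.47%. At each of these days the share of members called was thus near or below that of all genes. The median change of the members was -0.11 at day 1 (all genes -0.13), -0.21 at day 4 (all genes -0.29) and 0.43 at day 7 (all genes -0.14). Quantile normalization changed the balance at day 4 to 10 higher and 22 lower with a member median of -0.58, and turned the member median at day 7 to -0.08. Under the same scaling 22% of all genes rose and 36.4% fell at day 4, and the median of all genes was -0.29 at day 4 and -0.11 at day 7. Without MC221 the member median at day 7 was 0.01, against -0.16 for all genes. Over the 3 days, 14 members rose at any day in TdTomato cells, 7 at both day 1 and day 4 and 4 at all 3 days (Kcnk10, Kcnk6, Kcnmb3 and Kcnq1). Another 13 fell at any day, 3 at both day 1 and day 4 and 2 at all 3 days (Kcng2 and Kcnj12). How many of all genes did so over several days was not counted, so these counts have no share beside them.

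In EGFP cells 1 member (1.75%) rose at day 1, where 0.0256% of all genes rose and 0% fell. At day 4, 0 members were called by limma, with 5 at an unadjusted p under 0.05, against 0.557% of all genes higher and 0.0384% lower. At day 7, 0 rose and 2 (3.51%) fell, against 5.34% and 1.92% of all genes.

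**Figure D1:**
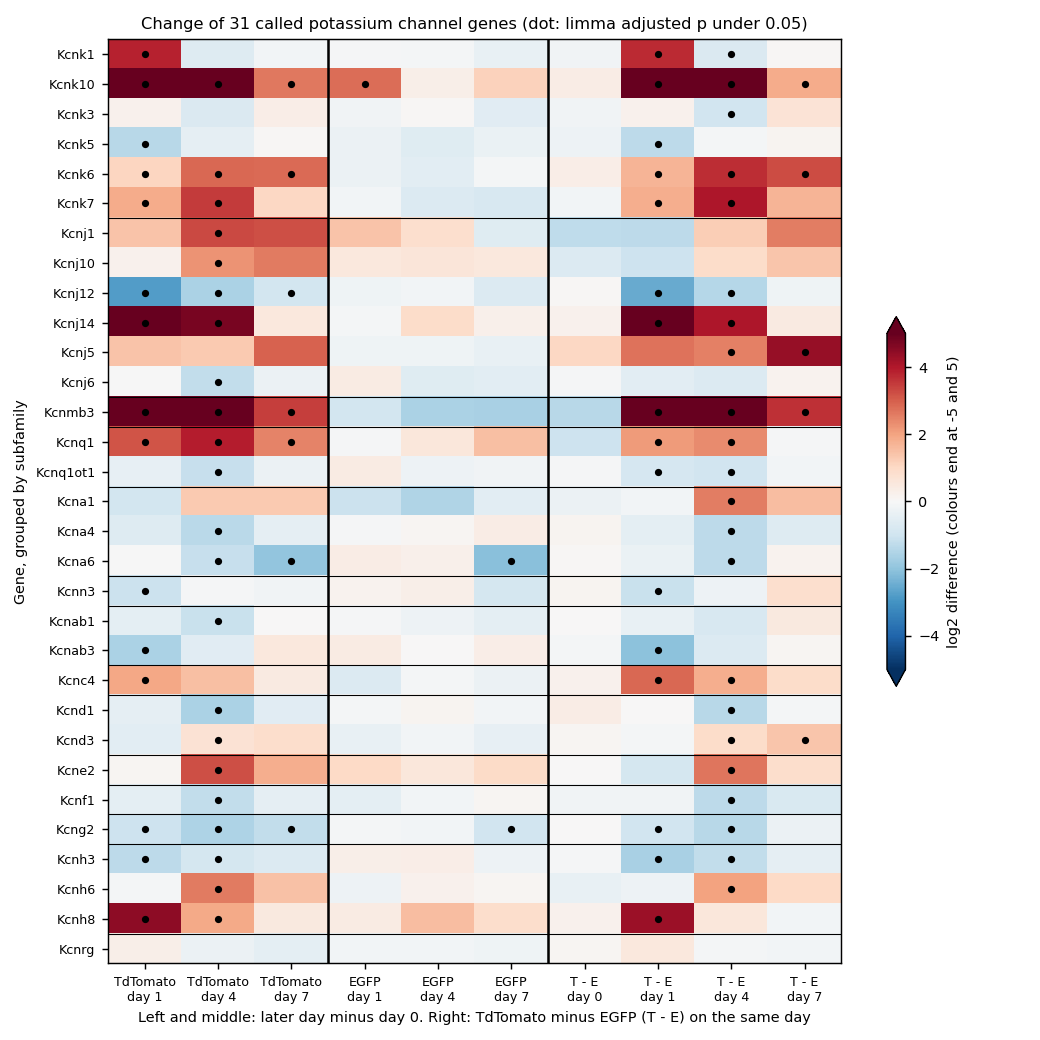
Log2 difference of the 31 potassium channel genes called in at least 1 comparison, grouped by subfamily (rows), for each later day minus day 0 in TdTomato and in EGFP cells and for TdTomato minus EGFP on the same day (columns). A dot marks a limma adjusted p under 0.05. Kcnrg has no dot, as it was called only between days 1 and 4 in TdTomato cells. Dots fill the TdTomato columns of days 1 and 4 (15 and 22 genes), and the EGFP columns hold 1, 0 and 2.

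**Figure D2:**
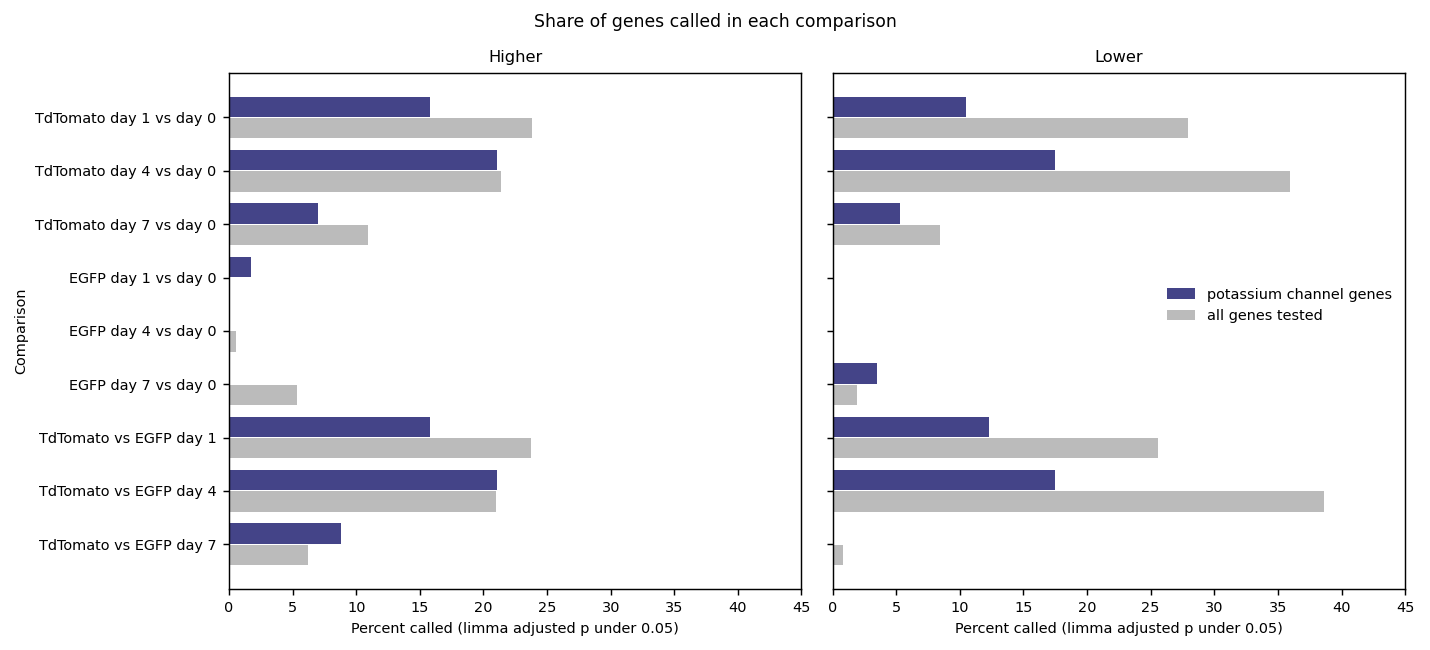
Percent of genes called higher (left) and lower (right) in each comparison, for the potassium channel genes (dark bars) and all 15622 genes tested (grey bars). The grey bars are longer than the dark ones for most TdTomato comparisons, for example 35.9% against 17.5% lower at day 4.

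The Kcnk genes, which code for leak channels, held the largest rise. Of 14 on the array 11 passed the filter. In TdTomato cells 4 rose (Kcnk10, Kcnk1, Kcnk7 and Kcnk6) and 1 fell (Kcnk5) at day 1, 3 rose (Kcnk10, Kcnk7 and Kcnk6) and 0 fell at day 4, and 2 rose (Kcnk6 and Kcnk10) and 0 fell at day 7. Kcnk10 codes for TREK-2, which opens on stretch and on polyunsaturated fatty acids. In TdTomato cells its level was -3.87, -3.85, -2.86 and -2.77 at day 0, then 5.35, 6.28, 6.57 and 7.00 at day 1, 1.41, 1.85, 2.12 and 2.23 at day 4, and -0.91 and -0.51 at day 7. In EGFP cells it was -4.01, -3.86, -3.76 and -3.21 at day 0, -1.63, -0.73 and -0.42 at day 1, -3.62, -3.62, -3.26 and -3.21 at day 4, and -3.94, -2.59, -2.43 and -1.34 at day 7. No array of TdTomato cells at days 1, 4 or 7 overlapped with day 0, and the TdTomato arrays of day 1 lay above all other arrays. Errors of differences are standard errors (SE) from limma. Relative to day 0, TdTomato Kcnk10 rose 795-fold at day 1 (log2 9.64 ± 0.41 SE, adjusted p = 2.0e-14), 37.7-fold at day 4 (5.24 ± 0.41, adjusted p = 2.7e-10) and 6.19-fold at day 7 (2.63 ± 0.51, adjusted p = 0.00064), and within the slides the day 1 difference ran from 9.21 to 10.12. Without both arrays of MC221 the day 7 difference was 2.83. EGFP Kcnk10 also rose at day 1, 6.87-fold (2.78 ± 0.45, adjusted p = 0.011), in 3 of 3 slides by 2.13 to 3.59, but the adjusted p was 0.48 with normexp background correction, 0.49 with only both groups in the fit, and 0.053 to 0.2 when 1 of 5 arrays was left out (day 0: MC122, MC731, MC742; day 1: MC125, MC542). The rise in TdTomato cells exceeded that in EGFP cells at day 1 by 6.85 ± 0.61 (adjusted p = 1.7e-08). On the log2 scale, TdTomato Kcnk10 was 7.23 above EGFP Kcnk10 at day 1, and most mice gave both populations. Whether TdTomato cells or their RNA carried over into the EGFP samples was not tested.

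Kcnk1 codes for TWIK-1, a weak inward-rectifying leak channel. In TdTomato cells Kcnk1 was between -1.78 and -0.92 at day 0, 1.94, 2.84, 2.91 and 2.93 at day 1, between -2.25 and -1.48 at day 4, and -1.35 and -1.32 at day 7. It was high on the 4 day 1 arrays alone, and EGFP arrays ranged from -2.46 to -0.44 over all days. Kcnk1 rose 14.5-fold at day 1 (3.85 ± 0.31, adjusted p = 4.1e-10), by 3.03 to 4.70 within the slides. At day 4 the difference from day 0 was -0.63 ± 0.31 (adjusted p = 0.085).

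Kcnk7, a relative of TWIK-1 for which no current of its own is established, had levels of -2.19, -1.23, -0.81 and -0.56 at day 1 and -0.02, 0.49, 0.54 and 0.79 at day 4 in TdTomato cells, against -3.30, -3.28, -3.04 and -2.58 at day 0. Neither day overlapped with day 0, and day 4 lay above day 1. Kcnk7 rose 3.62-fold at day 1 (1.86 ± 0.47, adjusted p = 0.0016) and 11.3-fold at day 4 (3.50 ± 0.47, adjusted p = 1.3e-06), and at day 7 the difference was 1.02 ± 0.57 (adjusted p = 0.22). Kcnk6 codes for TWIK-2, another leak channel of this group, described in lysosomes and immune cells. In TdTomato cells Kcnk6 was -4.51, -2.96, -2.20 and -2.01 at day 1, -1.39, -1.36, -1.0 and -0.87 at day 4, and -1.59 and -0.73 at day 7, against -4.50, -4.11, -3.96 and -3.50 at day 0. The day 1 arrays overlapped with day 0 through mouse MC541, while days 4 and 7 lay above every day 0 array. Kcnk6 rose 2.14-fold at day 1 (1.09 ± 0.40, adjusted p = 0.024), a call that ended under 5 of 17 alternatives (0.20 with normexp, adjusted p = 0.41). It rose 7.28-fold at day 4 (2.86 ± 0.40, adjusted p = 2.3e-06) and 7.23-fold at day 7 (2.85 ± 0.49, adjusted p = 0.00017), with 3.28 at day 7 without MC221. The day 1 rise was not seen on every slide (-0.40 to 2.30), while that of day 4 ran from 2.58 to 3.50.

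Kcnk5 codes for TASK-2, a leak channel that senses extracellular pH and cell volume and is present in the renal tubule. It was -5.01, -4.73, -4.51 and -4.23 at day 1 in TdTomato cells, against -3.59, -3.29, -3.20 and -2.90 at day 0, with no overlap. Kcnk5 fell 2.60-fold at day 1 (-1.38 ± 0.26, adjusted p = 8.6e-05), and its difference at day 4 was -0.45 ± 0.26 (adjusted p = 0.15). The remaining 6 Kcnk members, Kcnk3, Kcnk4, Kcnk9, Kcnk13, Kcnk15 and Kcnk16, were not called against day 0 in either population.

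**Figure D3:**
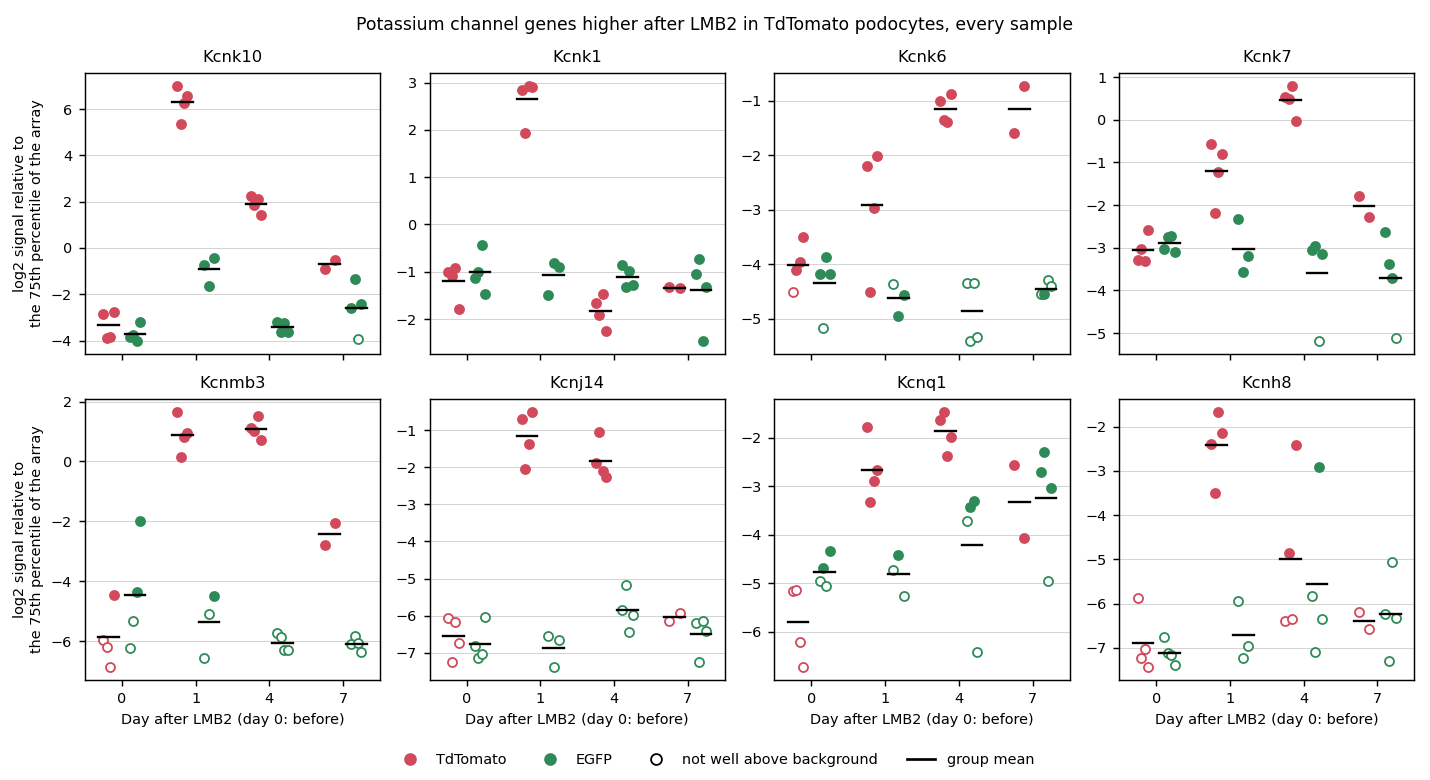
Log2 signal minus the array's 75th percentile (y axis) by day (x axis) for 8 members that rose in TdTomato cells at day 1, day 4 or both. Each point is 1 array, hollow where not well above background, and bars are group means. TdTomato Kcnk10 and Kcnk1 peak at day 1, Kcnk7 and Kcnq1 at day 4, and the EGFP means lie below the TdTomato means at days 1 and 4, except that of Kcnk1 at day 4.

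In the Kcnm group, 3 of 6 genes passed, and 1, Kcnmb3, rose. It codes for an auxiliary beta subunit that changes the gating of the BK channel. Kcnmb3 in TdTomato cells was -6.85, -6.20, -5.96 and -4.45 at day 0, 0.14, 0.80, 0.94 and 1.65 at day 1, 0.73, 1.01, 1.12 and 1.51 at day 4, and -2.79 and -2.04 at day 7. Only 1 of the 4 day 0 arrays was well above background, so the folds rest on a level near it. In EGFP cells it was well above background on 2 of 4 arrays at day 0, 1 of 3 at day 1, and 0 of 4 at days 4 and 7. Kcnmb3 rose 108-fold at day 1 (6.75 ± 0.61, adjusted p = 3.4e-09), 124-fold at day 4 (6.96 ± 0.61, adjusted p = 1.9e-09) and 10.9-fold at day 7 (3.45 ± 0.75, adjusted p = 0.0022). The groups did not overlap at any of these days, and the slides gave 5.39 to 7.65 at day 1 and 5.18 to 8.36 at day 4. At day 7 the difference was 3.82 without MC221, but the call ended with normexp (0.71, adjusted p = 0.056) and without MC791 (3.08, adjusted p = 0.05).

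Kcnma1, the pore subunit that Kcnmb3 serves, was well above background on 4 of 29 arrays and was called nowhere. Its level in TdTomato cells was -6.25, -5.83, -5.0 and -4.31 at day 0, -7.46, -7.13, -6.40 and -4.01 at day 1, -6.25, -5.18, -4.65 and -4.38 at day 4, and -6.40 and -5.61 at day 7, and the days overlapped. The difference of Kcnma1 from day 0 was -0.90 at day 1 (95% interval -2.23 to 0.42, adjusted p = 0.26), 0.23 at day 4 (-1.09 to 1.55) and -0.66 at day 7 (-2.28 to 0.96). Without MC221 the day 7 value of Kcnma1 was -1.05, and by normexp it was 0.30, so its sign depends on the background correction. Without mouse MC831 the day 1 value was -1.65 (adjusted p = 0.019). Kcnmb4, the beta subunit typical of neurons, was not called with its brightest probe (0.35 ± 0.63 at day 4, adjusted p = 0.65), while a second, dimmer probe, above background on 5 arrays, had a mean difference of 5.0 there. The probes of Kcnmb4 thus disagree at day 4, and only the brightest was tested.

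In the Kcnj group 10 of 15 genes passed. In TdTomato cells 1 rose and 1 fell at day 1, 3 rose and 2 fell at day 4, and 0 rose and 1 fell at day 7. Kcnj14 codes for a strong inward rectifier known mainly from motor neurons and retina. It was not well above background on any array outside TdTomato cells at days 1 and 4, where all 8 arrays were above it. Kcnj14 thus passed the filter through those arrays alone, and the p-values below are not independent of that. In TdTomato cells Kcnj14 was -7.26, -6.73, -6.18 and -6.06 at day 0, -2.04, -1.36, -0.71 and -0.51 at day 1, -2.26, -2.09, -1.88 and -1.05 at day 4, and -6.15 and -5.94 at day 7. Against day 0, Kcnj14 was at least 12.8-fold higher at day 1 (fitted log2 5.40 ± 0.37, adjusted p = 2.6e-11) and at least 8.09-fold higher at day 4 (4.74 ± 0.37, adjusted p = 1.8e-10). Such a bound sets the high group against the lowest signal that was well above background on each array, or the probe's own signal where higher. A second probe of Kcnj14 moved the same way (2.52 and 2.09).

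Kcnj12 codes for a strong inward rectifier that holds the resting voltage of heart and muscle. In TdTomato cells Kcnj12 was 3.08, 3.24, 3.29 and 3.85 at day 0, 0.10, 0.45, 0.52 and 1.24 at day 1, 1.21, 1.76, 2.05 and 2.12 at day 4, and 2.28 and 2.60 at day 7. All day 1, day 4 and day 7 arrays lay below all day 0 arrays, with the lowest at day 1. EGFP arrays ranged from 2.24 to 3.88 over all days. Kcnj12 fell 6.91-fold at day 1 (-2.79 ± 0.26, adjusted p = 4.9e-09), 2.99-fold at day 4 (-1.58 ± 0.26, adjusted p = 2.2e-05) and 1.90-fold at day 7 (-0.93 ± 0.32, adjusted p = 0.044). Within the slides the differences were -3.75 to -2.0 at day 1 and -2.03 to -1.24 at day 4. The day 7 call ended under 10 of 16 alternatives, and was -0.77 (adjusted p = 0.29) without MC221.

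Kcnj1 (ROMK, the secretory potassium channel of the thick ascending limb and collecting duct) and Kcnj10 (a basolateral channel of the distal convoluted tubule) rose in TdTomato cells at day 4. Kcnj1 was -1.90, -0.97, -0.87 and 0.35 at day 4, against -6.06, -4.16, -3.57 and -2.91 at day 0, higher by 3.32 ± 1.31 on the log2 scale (adjusted p = 0.033). Kcnj10 was -3.22, -3.04, -3.0 and -1.88 at day 4, against -6.18, -4.75, -4.60 and -4.54 at day 0, a 4.70-fold difference (2.23 ± 0.77, adjusted p = 0.016). Neither pair of groups overlapped, and the highest day 4 value of both was that of MC823. Without MC823 the differences were 2.93 (adjusted p = 0.085) for Kcnj1 and 1.93 (adjusted p = 0.053) for Kcnj10. The Kcnj1 call also ended without MC122, MC753, MC151 or MC692 (adjusted p = 0.053 to 0.11), and that of Kcnj10 without MC122. By normexp the differences were 1.32 (adjusted p = 0.05) for Kcnj1 and 0.37 (adjusted p = 0.19) for Kcnj10, and both calls ended. At day 7, Kcnj1 was 1.59 in TdTomato MC221 and 0.73 in EGFP MC221, against -3.47 in the other TdTomato array and -6.44 to -2.51 in the other EGFP arrays.

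Kcnj16, the partner of Kcnj10, and Kcnj15, found in the proximal tubule, were not called, but MC823 at day 4 had the highest TdTomato value of each: 1.09 for Kcnj16, against -4.34 to -3.11 in the other 3 arrays, and -0.07 for Kcnj15, against -5.51 to -4.73. Of the 10 distal nephron markers, 7 passed the filter and Calb1, Scnn1g and Atp6v1b1 did not. Their summed level on TdTomato arrays was 1.48 to 3.95 at day 4 and 1.77 to 5.86 at day 7, against 1.24 to 2.39 at day 0. Of the 7, 2 rose and 1 fell at day 4 and 1 rose at day 7 in TdTomato cells, and 0 were called in EGFP cells. Their part in the values of Kcnj1, Kcnj10, Kcnj15 and Kcnj16 was not tested.

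**Figure D4:**
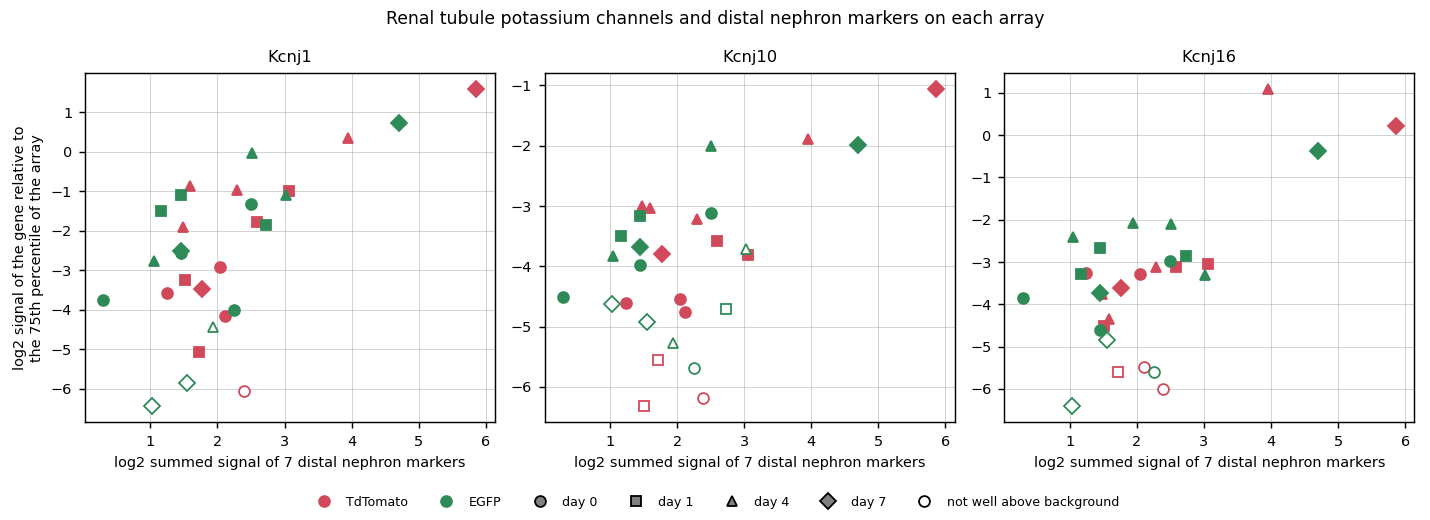
Log2 signal of Kcnj1, Kcnj10 and Kcnj16 on each array (y axes) against the log2 summed signal of 7 distal nephron markers (x axis), with colour for population and symbol for day. Arrays of MC221 (sums 5.86 and 4.70) and TdTomato MC823 (3.95) lie at the right, where the channel levels are high, and low and high channel levels both occur at low sums.

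The G protein-gated rectifiers Kcnj5 and Kcnj6 showed less. Kcnj6 fell at day 4 in TdTomato cells (-1.22 ± 0.38, adjusted p = 0.0086), but was above background on 1 of 4 arrays at day 4 and 2 of 4 at day 0, and the groups overlapped. By normexp the Kcnj6 difference was -0.38 (adjusted p = 0.059). Kcnj5 differed from day 0 by 1.44, 1.29 and 2.93 at days 1, 4 and 7 in TdTomato cells, with adjusted p = 0.28, 0.31 and 0.12. Kcnj11 and Kcnj13 were not called.

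In the Kcnq group 2 of 6 symbols passed. Kcnq1 codes for the pore of a slow voltage-gated channel that also recycles potassium in epithelia. In TdTomato cells Kcnq1 was -6.72, -6.20, -5.16 and -5.13 at day 0, with 0 of 4 arrays above background, -3.32, -2.89, -2.67 and -1.78 at day 1, -2.37, -1.98, -1.64 and -1.47 at day 4, and -4.06 and -2.57 at day 7. All arrays of days 1, 4 and 7 lay above all those of day 0. Kcnq1 was at least 4.49-fold higher at day 1 (3.13 ± 0.59, adjusted p = 8.5e-05), at least 7.81-fold at day 4 (3.93 ± 0.59, adjusted p = 6.7e-06) and at least 2.87-fold at day 7 (2.49 ± 0.72, adjusted p = 0.018). With normexp the day 1 difference was 0.42 (adjusted p = 0.12), and at day 7 the call ended under 6 of 16 alternatives, with 1.74 (adjusted p = 0.27) without MC221. In EGFP cells Kcnq1 was -4.96, -3.04, -2.70 and -2.29 at day 7, against -5.06, -4.96, -4.69 and -4.33 at day 0 (1.51 ± 0.59, adjusted p = 0.14).

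Kcnq1ot1, the imprinted RNA transcribed antisense to Kcnq1, was above background on all arrays. In TdTomato cells it was 1.59, 1.68, 1.77 and 1.89 at day 4, against 2.33, 2.67, 3.01 and 3.58 at day 0, and fell 2.24-fold (-1.17 ± 0.32, adjusted p = 0.0035). The groups did not overlap, and the other probe of Kcnq1ot1 had a mean difference of -1.23. Which strand each probe reads was not checked, so signal of Kcnq1 and Kcnq1ot1 where they overlap cannot be told apart.

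In the Kcna group of Shaker-type voltage-gated channels, 6 of 8 genes passed, 0 rose and 0 fell at day 1, 0 rose and 2 fell at day 4 and 0 rose and 1 fell at day 7 in TdTomato cells. Kcna6 codes for a delayed rectifier. In TdTomato cells Kcna6 was 1.96, 2.29, 3.01 and 3.42 at day 0, 2.46, 2.46, 2.65 and 3.06 at day 1, 1.07, 1.32, 1.62 and 2.12 at day 4, and 0.16 and 1.26 at day 7. In EGFP cells it was 2.03, 2.27, 2.89 and 3.26 at day 0, 2.82, 2.95 and 3.23 at day 1, 2.25, 2.64, 2.85 and 3.68 at day 4, and -0.28, 0.35, 0.58 and 1.51 at day 7. The day 7 arrays of both populations lay below all their day 0 arrays, and TdTomato day 4 overlapped with day 0 through 1 array. In TdTomato cells Kcna6 fell 2.20-fold at day 4 (-1.14 ± 0.38, adjusted p = 0.014; -0.89, adjusted p = 0.063 without MC122 of day 0) and 3.89-fold at day 7 (-1.96 ± 0.47, adjusted p = 0.0046). In EGFP cells Kcna6 fell 4.21-fold at day 7 (-2.08 ± 0.38, adjusted p = 0.00069). Without MC221 the day 7 differences were -1.41 (adjusted p = 0.15) in TdTomato cells and -2.01 in EGFP cells, where the call remained.

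Kcna4 codes for a rapidly inactivating channel. It was 0.76, 0.83, 1.61 and 1.76 at day 4 in TdTomato cells, against 2.14, 2.20, 2.81 and 3.19 at day 0, and fell 2.54-fold (-1.35 ± 0.29, adjusted p = 0.00047) with no overlap. Kcna1, Kcna3, Kcna5 and Kcna7 were not called against day 0 in either population.

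Kcng2, a modifier subunit that is silent alone and joins Kcnb channels, fell in both populations and varied little between mice. In TdTomato cells Kcng2 was 1.11, 1.16, 1.17 and 1.32 at day 0, -0.08, 0.06, 0.16 and 0.40 at day 1, -0.59, -0.33, -0.23 and -0.23 at day 4, and -0.13 and 0.02 at day 7. In EGFP cells it was 1.04, 1.09, 1.22 and 1.39 at day 0, 1.02, 1.07 and 1.24 at day 1, 0.98, 1.02, 1.02 and 1.12 at day 4, and -0.06, 0.08, 0.34 and 0.54 at day 7. Its TdTomato arrays were thus below day 0 from day 1 on, and its EGFP arrays at day 7. Kcng2 fell in TdTomato cells 2.08-fold at day 1 (-1.05 ± 0.13, adjusted p = 3.8e-07), 2.89-fold at day 4 (-1.53 ± 0.13, adjusted p = 1.2e-09) and 2.37-fold at day 7 (-1.25 ± 0.16, adjusted p = 5.4e-06), and in EGFP cells 1.95-fold at day 7 (-0.96 ± 0.13, adjusted p = 1.8e-05). Each of these calls held under all alternatives run, and the second probe of Kcng2 gave -1.35, -1.60 and -1.20 in TdTomato cells. Without MC221 the day 7 differences were -1.32 in TdTomato cells and -1.0 in EGFP cells.

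**Figure D5:**
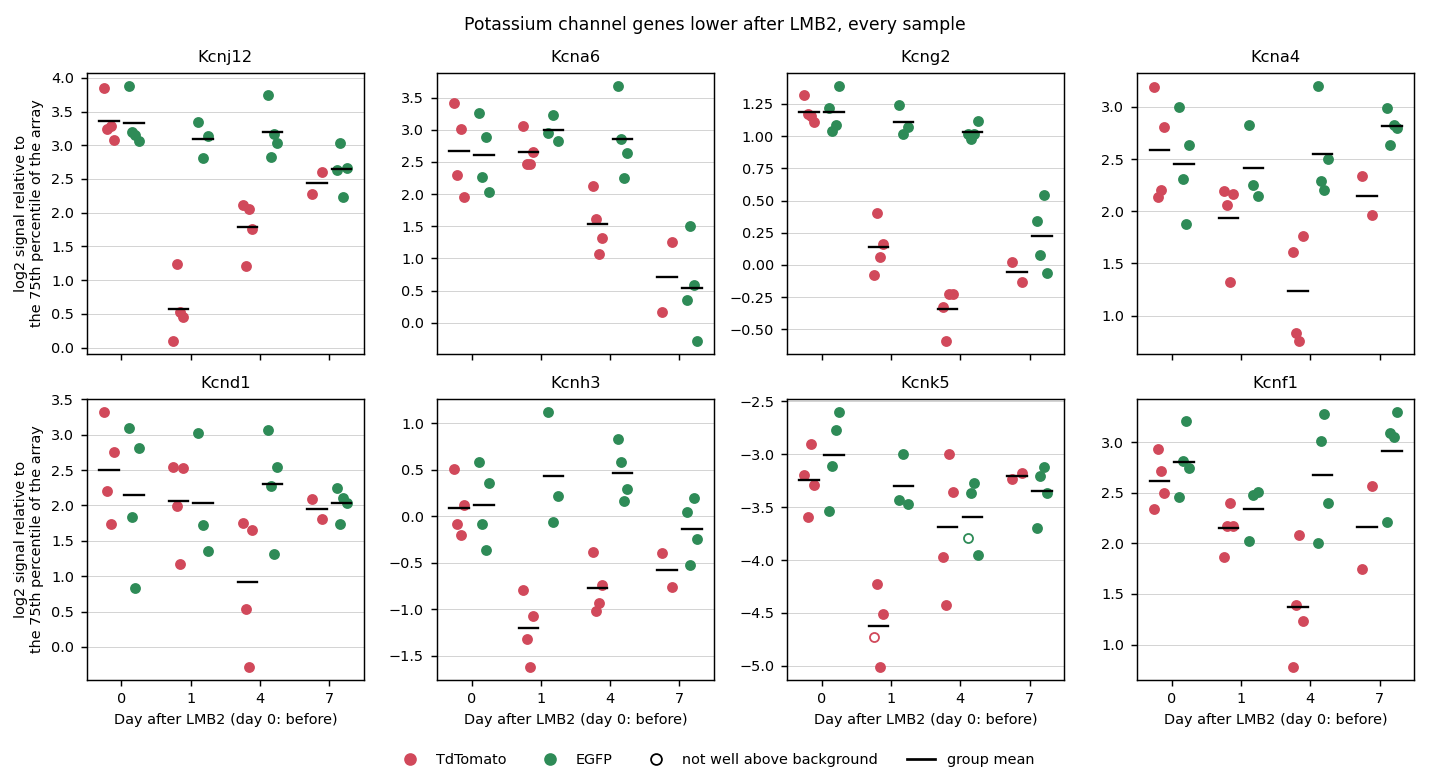
Log2 signal minus the array's 75th percentile (y axis) by day (x axis) for 8 members that fell in TdTomato cells. Each point is 1 array, hollow where not well above background, and bars are group means. Kcnj12, Kcnh3 and Kcnk5 are lowest at day 1, Kcng2 and Kcna4 at day 4, and Kcna6 and Kcng2 are also low in EGFP cells at day 7.

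In the Kcnh group 5 of 8 genes passed. Kcnh3, a channel of the Elk type known from forebrain, was -1.62, -1.32, -1.07 and -0.79 at day 1 and -1.02, -0.93, -0.74 and -0.39 at day 4 in TdTomato cells, against -0.20, -0.08, 0.12 and 0.51 at day 0. Kcnh3 fell 2.44-fold at day 1 (-1.29 ± 0.26, adjusted p = 0.00016) and 1.81-fold at day 4 (-0.86 ± 0.26, adjusted p = 0.0067), without overlap at either day. Kcnh8, another Elk channel, was not well above background on any array of day 0. It was -3.49, -2.40, -2.14 and -1.67 at day 1 in TdTomato cells and at least 5.32-fold higher than at day 0 (4.46 ± 0.77, adjusted p = 2.9e-05). At day 4 only MC692 (-4.85) and MC823 (-2.42) were above background, the groups overlapped, no bound above 1 could be given, and the Kcnh8 call (1.88 ± 0.77, adjusted p = 0.04) ended under 10 of 16 alternatives. Kcnh6, of the Erg type, was above background at day 4 on 2 of 4 TdTomato arrays (-3.79 and -3.11) and on none of day 0, and was at least 1.47-fold higher (2.60 ± 0.60, adjusted p = 0.00078). With normexp that Kcnh6 difference was -0.07 (adjusted p = 0.78). Kcnh2 and Kcnh4 were not called.

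Among the other voltage-gated pores, Kcnd1, an A-type channel, was -0.28, 0.54, 1.65 and 1.75 at day 4 in TdTomato cells, against 1.74, 2.21, 2.75 and 3.32 at day 0, overlapping by 1 array. Kcnd1 fell 3.01-fold (-1.59 ± 0.51, adjusted p = 0.01), with -1.19 (adjusted p = 0.055) without MC822. Kcnd3, a related A-type channel, rose 1.63-fold at day 4 (0.71 ± 0.29, adjusted p = 0.04), a call that ended under 11 of 17 alternatives. Kcnf1, a silent modifier like Kcng2, was 0.78, 1.23, 1.39 and 2.08 at day 4 in TdTomato cells, against 2.34, 2.5, 2.72 and 2.93 at day 0, and fell 2.38-fold (-1.25 ± 0.29, adjusted p = 0.00083) without overlap. At day 1 the Kcnf1 probes differed, with -0.47 for the brightest and -1.30 for the other. Kcnc4, a voltage-gated channel of the Kcnc group, was above background on 4 of 4 TdTomato arrays at day 1 and on 0 of 4 at day 0. It was at least 2.07-fold higher (1.94 ± 0.78, adjusted p = 0.041), but the groups overlapped by 1 array pair and the call ended under 7 of 16 alternatives.

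The auxiliary subunits moved in both directions. Kcne2, a single-span subunit that joins Kcnq1 and Erg channels, was above background on 4 of 4 TdTomato arrays at day 4 (-4.48, -4.21, -3.87 and -3.16) and on 0 of 4 at day 0. Kcne2 was at least 1.88-fold higher (3.23 ± 0.62, adjusted p = 0.00012), and with normexp the difference was 0.23 (adjusted p = 0.37). Of the beta subunits of Shaker-type channels, Kcnab3 fell 2.96-fold at day 1 (-1.57 ± 0.35, adjusted p = 0.00052), when 1 of 4 arrays was above background against 3 of 4 at day 0, with -0.36 (adjusted p = 0.089) by normexp. Kcnab1 fell 2.17-fold at day 4 (-1.12 ± 0.41, adjusted p = 0.024), with overlap and with -0.55 (adjusted p = 0.16) without MC822. Kcnip2 and Kcnip3, calcium-binding partners of A-type channels, were not called, nor was Kcne1l with its brightest probe. The second Kcne1l probe, above background on 8 arrays, had a mean difference of 3.39 at day 7 in TdTomato cells, against 0.63 for the brightest. In EGFP cells at day 7 the second probe gave 4.45 and the brightest 0.53. The probes of Kcne1l thus differ in size in both populations, and only the brightest was tested.

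Of the calcium-activated channels of the Kcnn group, 1 of 4 passed. Kcnn3 was -5.98, -5.74, -5.24 and -4.40 at day 1 in TdTomato cells, against -4.64, -4.53, -4.33 and -3.61 at day 0, with overlap, and fell 2.09-fold (-1.06 ± 0.41, adjusted p = 0.032). The Kcnn3 call ended under 6 of 17 alternatives (adjusted p = 0.056 with mouse as a replicate block), and the slides gave -2.37 to -0.07. Kcnt1, Kcnt2, Kcnu1 and Kcnrg were not called against day 0.

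At day 0, TdTomato and EGFP cells differed in 0 members and 0% of all genes by limma, with 1 member (Kcnmb3) and 74 of all genes at an unadjusted p under 0.05. At day 1, 9 members were higher and 7 lower in TdTomato than in EGFP cells (23.7% and 25.6% of all genes), and at day 4, 12 and 10 (21% and 38.6%). Quantile normalization gave 10 and 16 at day 4 (21.9% and 38.7% of all genes). At day 7, 5 were higher and 0 lower (6.19% and 0.8%), and 3 without MC221 (Kcnk6, Kcnmb3 and Kcnd3). The largest differences at day 1 were Kcnk10 (7.23 ± 0.45, 150-fold), Kcnmb3 (6.25 ± 0.66, fitted against EGFP arrays of which 1 of 3 was above background) and Kcnj14 (5.71 ± 0.39, at least 12.8-fold) upward. Downward they were Kcnj12 (-2.52 ± 0.28), Kcnab3 (-2.07 ± 0.38) and Kcnh3 (-1.63 ± 0.28).

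At day 4, Kcnmb3 was at least 42.2-fold higher in TdTomato than in EGFP cells (7.13 ± 0.61, adjusted p = 1.5e-09), Kcnk10 40.2-fold (5.33 ± 0.41), Kcnk7 16.4-fold (4.04 ± 0.47) and Kcnk6 at least 8.89-fold (3.70 ± 0.40). Kcna1, a Shaker-type channel also found in the distal convoluted tubule, was -4.20, -3.57, -3.25 and -2.25 in TdTomato cells, against -6.51, -6.48, -5.97 and -4.56 in EGFP cells at day 4. Kcna1 was above background on 3 of 4 TdTomato and 1 of 4 EGFP arrays. The fitted difference was 2.56 ± 0.62 (adjusted p = 0.0011) with no overlap, and 0.30 (adjusted p = 0.12) by normexp. Kcnj5, a G protein-gated rectifier of heart and adrenal, was higher by 2.53 ± 1.07 (adjusted p = 0.045), a call that ended under 9 of 17 alternatives (0.60 by normexp, adjusted p = 0.12). Kcnk3, an acid-sensitive leak channel, was lower (-0.97 ± 0.38, adjusted p = 0.033), a call that ended under 5 of 16 (-0.23 by normexp, adjusted p = 0.27). The largest differences downward were Kcnj12 (-1.41 ± 0.26), Kcng2 (-1.38 ± 0.13) and Kcnd1 (-1.38 ± 0.51, adjusted p = 0.023, ending under 5 of 17 alternatives).

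At day 7, Kcnk6 was 9.72-fold higher in TdTomato than in EGFP cells (3.28 ± 0.49, adjusted p = 5.8e-05; 3.68 without MC221). Kcnmb3 was at least 3.92-fold higher (3.66 ± 0.75, adjusted p = 0.0023; 4.03 without MC221), and without TdTomato MC791 it was 3.29 (adjusted p = 0.07). Kcnj5 was -1.66 and -0.02 in TdTomato cells, against -6.12, -5.49, -5.39 and -3.73 in EGFP cells, at least 11.1-fold higher (4.35 ± 1.31, adjusted p = 0.044), but the call ended under 10 of 16 alternatives. It was 4.85 (adjusted p = 0.16) without MC221, 3.52 (adjusted p = 0.29) without TdTomato MC791 and 4.92 (adjusted p = 0.054) with mouse as a replicate block. Kcna6 and Kcng2, which fell in both populations, differed between them at day 7 by 0.17 (95% interval -0.79 to 1.14) and -0.28 (-0.62 to 0.05).

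The change from day 0 itself differed between TdTomato and EGFP cells, by an interaction term, for 12 members at day 1 (38.4% of all genes), 15 at day 4 (44.4%) and 2 at day 7 (2.69%). The main fit took all arrays as independent, here and in the comparisons of TdTomato with EGFP cells, although most mice gave both. With mouse as a replicate block, which uses this pairing, the numbers were 20 and 23 at days 1 and 4. The share of all genes under that fit is not given here. Kcng2 was among them at days 1 and 4, and Kcnk6 and Kcnmb3 were those of day 7. These comparisons share the day 0 arrays with those above.

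Changes between later days in TdTomato cells were compared after the data had been seen. From day 1 to day 4, 11 members rose and 9 fell (24.1% and 26.2% of all genes; 7 and 12 with quantile normalization, where all genes gave 25.9% and 24.5%). Kcnk1 fell 22.3-fold (-4.48 ± 0.31, adjusted p = 3.3e-11) and Kcnk10 21.1-fold (-4.40 ± 0.41, adjusted p = 5.4e-09), while Kcnj12 rose 2.31-fold (1.21 ± 0.26, adjusted p = 0.00044) and Kcne2 was at least 2.30-fold higher. From day 4 to day 7, 0 rose and 4 fell (11.5% and 13.1%; 5 and 4 with quantile normalization, where all genes gave 15.5% and 15.7%). Those were Kcnj14, at least 5.41-fold lower at day 7 (-4.23 ± 0.45), Kcnmb3 (-3.51 ± 0.75, 11.4-fold), Kcnk10 (-2.61 ± 0.51, 6.09-fold) and Kcnk7 (-2.48 ± 0.57, 5.58-fold), and all 4 were also called without MC221.

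Of 58 other genes of potassium and linked ion handling written down as a list, 47 were measured. In TdTomato cells 9 rose (19.1%) and 15 fell (31.9%) at day 1 (median -0.28, all genes -0.13), against 23.8% and 27.9% of all genes. At day 4, 8 rose (17%) and 16 fell (34%) (median -0.34, all genes -0.29), against 21.4% and 35.9%. At day 7, 7 rose (14.9%) and 1 fell (2.13%) (median 0.16, all genes -0.14), against 10.9% and 8.47%, and without MC221 7 rose and 0 fell. The shares at days 1 and 4 are near those of all genes. In EGFP cells limma called 0 at days 1 and 4, and 3 rose (6.38%, against 5.34% of all genes) and 0 fell at day 7, or 4 and 1 without MC221. Hcn3, a pacemaker channel that passes sodium and potassium, was above background on all TdTomato arrays of days 1 and 4 and on no other array. It passed the filter through those arrays alone. Hcn3 was at least 21.1-fold higher at day 1 (6.37 ± 0.44, adjusted p = 4.5e-11) and at least 7.46-fold at day 4 (4.87 ± 0.44) than at day 0. Cacna1a, the pore of a neuronal calcium channel, was at least 9.45-fold higher at day 1 (3.97 ± 0.58, adjusted p = 3.6e-06) and at least 3.42-fold at day 4. Abcc8, the sulfonylurea receptor that pairs with Kcnj11, rose by 2.79 ± 0.44 at day 1 (adjusted p = 8.4e-06) and 2.93 ± 0.44 at day 4, while Kcnj11 itself was above background on 4 of 29 arrays. Slc12a5, a potassium-chloride cotransporter of neurons, rose by 3.39 ± 0.69 at day 4 (adjusted p = 0.00024) and 3.09 ± 0.85 at day 7 (adjusted p = 0.012). Lrrc8c, a subunit of the volume-regulated anion channel, and Fxyd5, a regulator of the sodium pump, rose at day 7 by 2.63 ± 0.77 (adjusted p = 0.018) and 3.27 ± 0.97 (adjusted p = 0.02). Without MC221 the day 7 differences were 3.82 for Slc12a5 (adjusted p = 0.032), 3.53 for Lrrc8c (adjusted p = 0.022) and 4.10 for Fxyd5 (adjusted p = 0.042). Of 9 measured markers of neurons and Schwann cells, 3 rose and 1 fell at day 1, 3 rose at day 4 and 3 at day 7 in TdTomato cells, with summed levels of 4.55 to 6.32 at day 1 and 4.93 to 6.40 at day 4, against 4.55 to 5.11 at day 0. Their part in the rises of Hcn3, Cacna1a, Slc12a5 and the channels known from neurons was not tested.

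The 39 Kcn symbols that did not pass were above background on at most 2 arrays. They include all Kcns and Kcnv genes (modifier subunits), Kcnn1, Kcnn2 and Kcnn4, and Kcnj2 and Kcnj8. Of the 57 that passed, 18 were above background on all 29 arrays and 16 on fewer than 15. A gene bright only in 1 or 2 groups passes through those groups, as Kcnj14 did, and its adjusted p is not independent of that. Of 11 members with 2 or more probes past the filter, 9 had mean differences of the same sign in both probes at each of days 1, 4 and 7 in TdTomato cells, whatever their size, and Kcna7 and Kcnk4 did not.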

How the data were processed

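Arrays were one-colour Agilent arrays of sorted podocytes, 29 in all. The spot intensity values deposited were background-subtracted and detrended by Agilent Feature Extraction 11.5.1.1, per the file headers. The authors' deposited table holds log2 values for the same arrays, with centring that was not stated, and served as an alternative. Its column medians ran from -3.18 to -2.33, and 27 of 29 columns matched their own array best. RNA was extracted with TRIzol LS, and 0.1 µg was labelled with Cy3, per the labels' protocols.

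From these, log2 of the processed signal minus the array's 75th percentile was computed, control and outlier spots were left out, spots of a probe were averaged, and probes were named through their RefSeq accession (26576 of 55681 probes had 1 symbol, 0 several and 29105 none). Probes well above background on at least 3 arrays were kept, with the brightest per gene, which left 15622 genes. limma 3.58.1 in R 4.3.3 fitted 8 group means, with Benjamini-Hochberg adjustment over all genes, and tables and plots were made in Python 3.11.15 (pandas 2.3.3, numpy 2.4.6, matplotlib 3.10.9). The fit was tested on simulated data. Replicates were different mice. The number of arrays limits the precision.

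The members and gene lists were chosen with earlier results of these data known. Any member called in a comparison could be named. Values per array are given for those with the largest changes (up to 4 each way against day 0, up to 3 between populations) and for Kcnma1, Kcnk10, Kcna6 and Kcnq1, and up to 6 genes of the transport list are named by the size of their change. Values for further members were added after they had been seen. Alternatives were normexp (offset 50, on median spot signals, since mean signals were not among the columns used), quantile normalization, no filter or a filter of 15 arrays, the mean of all probes, the authors' table, only the groups compared, slide as a block, mouse as a replicate block, and each array left out. Arrays of 1 mouse come from the same animal, which pairs them, and the main fit did not use this pairing. The deviations of the paired arrays from their group means correlated at 0.04 to 0.64. Some items are not reported here.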

Additional observations from a re-analysis of the deposited data

Results flagged for a closer look

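Among 138 groups of 4 arrays examined for 23 named genes, 9 held 1 array far from the other 3, and chance gives about 1 in 20. In TdTomato cells at day 1, Kcna4 was 1.32 in MC542 (others 2.06 to 2.19), Kcnk1 was 1.94 in MC541 (others 2.84 to 2.93), and Kcnh6 was -5.84 in MC125 (others -7.48 to -7.20). Kcnj10 was -6.18 in TdTomato MC122 at day 0 (others -4.75 to -4.54) and -1.88 in TdTomato MC823 at day 4 (others -3.22 to -3.0). In EGFP cells at day 0, MC122 had Kcnh6 at -4.36 (others -7.42 to -7.01) and Kcnj12 at 3.88 (others 3.06 to 3.2). In EGFP cells at day 4, Kcnk7 was -5.18 in MC822 (others -3.14 to -2.97) and Kcnq1 was -6.41 in MC823 (others -3.71 to -3.30).

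The change from day 0 differed between TdTomato and EGFP cells, by limma's interaction term, for 19 members on at least 1 day. How many of all genes did so was not counted. Of the members 21.1%, 26.3% and 3.51% were called at days 1, 4 and 7, against 38.4%, 44.4% and 2.69% of all genes. Values are given here as the TdTomato change minus the EGFP change on the log2 scale. At day 1 the values above 0 were Kcnmb3 7.65, Kcnk10 6.85, Kcnj14 5.5, Kcnh8 4.06, Kcnk1 3.91, Kcnq1 3.18 and Kcnk7 1.98. Those below 0 at day 1 were Kcnj12 -2.56, Kcnab3 -1.97, Kcnh3 -1.59, Kcnk5 -1.09 and Kcng2 -0.98. At day 4 those above 0 were Kcnmb3 8.53, Kcnk10 4.96, Kcnk7 4.19, Kcnj14 3.83, Kcnq1 3.39, Kcnk6 3.37, Kcna1 2.84, Kcne2 2.67 and Kcnh6 2.40. Those below 0 at day 4 were Kcnj12 -1.45, Kcna4 -1.44, Kcna6 -1.38, Kcng2 -1.38, Kcnh3 -1.20 and Kcnf1 -1.12. At day 7 the values were 5.06 for Kcnmb3 and 2.95 for Kcnk6. These are fitted sizes and not bounds. Kcnj14, Kcnh8, Kcnh6, Kcne2 and Kcnq1 were above background on no TdTomato array of day 0. Kcnmb3 was above it on no EGFP array of days 4 and 7. The sizes for these genes therefore rest partly on signal near background.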

How the results depend on the processing

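Of 1130 values of named changes under alternatives, 1048 kept their direction and their side of the adjusted p threshold. In 60 the direction held but the call was lost, and in 3 a call was gained. The sign turned in 19, all for changes that were not called, and in 0 for called changes. The alternatives share most of their arrays and values, so the 1130 values are not independent checks. The counts of members called were within 1.5 times the value reported except where given here, and the cause was not tested. For the blocks, normexp, the filters, the mean of all probes and the fits of only the groups compared, the shares of all genes are not given. Those counts therefore do not show whether the members or all genes moved. With slide as a block the counts were 13 for TdTomato day 7, 4 for EGFP day 7, 9 for TdTomato against EGFP at day 7 and 17 between TdTomato days 7 and 4. With mouse as a replicate block they were 20 and 23 for the interaction at days 1 and 4 and 7 between TdTomato days 7 and 4. The block moved no other count by over 1.5 times. With normexp they were 0 for EGFP day 1, 14 for TdTomato against EGFP at day 4, 0 for the interaction at day 7, 13 between TdTomato days 4 and 1 and 10 between days 7 and 4. Without a filter EGFP day 7 had 4. The stricter filter gave 3 for TdTomato against EGFP at day 7, 1 for the interaction at day 7 and 2 between TdTomato days 7 and 4. With only the groups compared, EGFP day 1 had 0 and TdTomato against EGFP at day 7 had 3, as it had without both arrays of MC221. Quantile normalization gave 9, and the mean of all probes 7, between TdTomato days 7 and 4.

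Leaving out 1 array at a time gave 12 to 16 (TdTomato day 1), 18 to 22 (day 4) and 5 to 6 (day 7), and 0 to 1 (EGFP day 1) and 2 to 5 (EGFP day 7, the 5 without MC824). TdTomato against EGFP gave 14 to 17 at day 1, 18 to 22 at day 4 and 1 to 5 at day 7 (1 without TdTomato MC791), and the interaction 10 to 14, 13 to 16 and 1 to 2. Without TdTomato MC823 at day 4, 18 members were called against day 0. For all fits with 1 array left out, the shares of all genes are not given. These counts too do not show whether the members or all genes moved. Normexp moved the median of all genes at TdTomato day 7 to -0.02, against -0.14 in the values reported, and that of the interaction at day 1 to -0.19, against -0.08. Members near background (16 were above it on fewer than 15 arrays) have folds that depend on the background correction.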
